A study of Mus musculus with 16 samples.

Results

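Meis1, Meis2, Hoxb3 and Tbx3 are transcription factor genes that mark position along the body and limb axes, and their levels were followed here in mouse cells of the types M833 and WT. The genes were taken as all probes to which the platform annotation gives one of these 4 symbols, 6 probes in all, and they are 4 of the 7114 named genes measured. They had been picked because each was higher in M833 than in WT in these arrays, so their difference between the cell types is given as a description without a test. By its title the series concerns Met mutations in MEFs, which usually means mouse embryonic fibroblasts. What M833 denotes is not said in any label, and no strain, age or number of cultures is given. Each cell type had 8 arrays, on which the sample was in Cy5 on 4 and in Cy3 on 4, against a common reference RNA whose make-up is not given. Replicates 1 to 4 of each cell type are the arrays with the sample in Cy5 and replicates 5 to 8 those with the sample in Cy3, numbered in the order of the series. All values are log2 ratios, read as sample over reference, a direction that the titles make likely but that no label states. Nothing in the labels says that arrays came from separate cultures, so every error and p-value measures the spread between arrays, which may be technical.

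MEIS1 and MEIS2 are homeodomain proteins of the TALE class. They bind DNA together with PBX and HOX proteins and set proximal identity in the limb and regional identity in the hindbrain. Hoxb3 belongs to the anterior part of the HoxB cluster and is used in the hindbrain and branchial arches, and Tbx3 encodes a T-box repressor needed in the limb, the mammary gland and the heart. Fibroblasts in culture are known to keep part of the Hox code of the site they came from, and retinoic acid is a classical inducer of Meis genes and of anterior Hox genes.

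Promoter sequence was at hand in RefSeq for only 2 of the 4 genes, Meis1 and Meis2, and both are shown. Each line gives the 250 bases before the start site on the strand of the gene, build GRCm38.p6, with matches to the searched motifs in capitals.
Meis1, chr11:19018970-19019219, minus strand: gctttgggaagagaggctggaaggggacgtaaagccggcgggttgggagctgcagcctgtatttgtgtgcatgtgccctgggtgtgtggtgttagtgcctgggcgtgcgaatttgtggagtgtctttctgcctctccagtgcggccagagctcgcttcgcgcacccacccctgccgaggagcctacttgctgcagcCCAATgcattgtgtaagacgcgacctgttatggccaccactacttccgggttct
Meis2, chr2:116064620-116064869, minus strand: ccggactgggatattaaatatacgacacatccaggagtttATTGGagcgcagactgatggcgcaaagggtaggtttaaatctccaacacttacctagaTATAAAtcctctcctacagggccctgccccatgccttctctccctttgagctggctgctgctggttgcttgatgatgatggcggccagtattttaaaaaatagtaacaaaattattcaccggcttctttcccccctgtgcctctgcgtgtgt
The Meis1 window has a CCAAT box 54 to 50 bases before the start site. The Meis2 window has a CCAAT box on the other strand, 210 to 206 bases before the start site. It also holds the letters TATAAA of the TATA box motif, 152 to 147 bases before the start site. These are matches of letters, whose use as promoter elements was not tested. On either strand 33.9% of 32841 promoter windows of this length hold CCAAT and 12.4% hold TATAAA. Neither window holds the MEIS core TGACAG (in 15.9% of windows), the PBX-HOX composite TGATTNAT (2.8%), the T-box core GGTGTGA (3.3%), the homeodomain core TAATTA (4.8%), the nuclear receptor half-site AGGTCA (14.0%) or the GC box GGGCGG (32.7%). The motifs did not overlap one another in these windows. The CCAAT, TATA and GC boxes were added to the search after the sequences had been seen.

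Between arrays Pearson's r over all probes was 0.591 to 0.973. WT replicate 2 stood apart, with 49 values above 8 in size where the other arrays had 0, and without it the lowest r was 0.818. Arrays of a cell type deviated together in sets of 4, replicates 1, 2, 5 and 6 against replicates 3, 4, 7 and 8, a division found in the data over all features and not given by the labels. With the 4 genes left out, deviations of WT arrays of one set and opposite dye correlated with r from 0.18 to 0.51, against -0.51 to -0.15 between sets. In M833 the same division was weak, with r from 0.023 to 0.24 within sets and from -0.2 to 0.026 between them. Each deviation was taken from the mean of the 4 arrays of one cell type and dye. Negative r between sets therefore largely mirror positive r within them. As the sets were found in these same values, the r describe the division and do not test it. Of 8 measured fibroblast markers, the receptor gene Pdgfrb (1.04 in M833 and 1.12 in WT) and the filament gene Vim (0.85 and 1.04) lay above the reference in both cell types, while the collagen gene Col3a1 (-1.29 and -0.91) and the proteoglycan gene Dcn (-2.80 and -2.56) lay below it.

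Meis1 was higher in M833 than in WT by a small amount that was nearly the same in both dye orientations. The mean of its 2 probes ran from 0.22 to 0.49 over the M833 arrays, with a median of 0.36, against 0.08 to 0.27 over the WT arrays, with a median of 0.17. The groups overlapped, since M833 replicate 2 was at 0.22 and WT replicate 5 at 0.27. Meis1 averaged 0.37 ± 0.10 in M833 and 0.18 ± 0.05 in WT (SD, n = 8 each), a log2 difference of 0.20 ± 0.04 (SE) or 1.15-fold. It was 0.20 on the arrays with the sample in Cy5 and 0.20 on those with the sample in Cy3.

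Meis2, the close relative of Meis1 that acts with the same partners, was the only one of the 4 genes whose cell types did not overlap. Its 2 probes averaged from 0.29 to 0.62 over the M833 arrays, with a median of 0.40, against 0.09 to 0.26 over the WT arrays, with a median of 0.15. Every M833 array therefore lay above every WT array, and all 4 M833 arrays exceeded all 4 WT arrays in both dye orientations, as they did in 4.01% of the 12761 features. The means were 0.43 ± 0.11 in M833 and 0.16 ± 0.06 in WT (SD, n = 8 each), and the log2 difference was 0.27 ± 0.05 (SE), or 1.21-fold.

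Hoxb3 had the widest spread of the 4 genes, and over all arrays as deposited the largest difference. Its difference was not the largest in every alternative. Examples are array weights (0.23, against 0.25 for Meis2) and the fit without M833 replicates 3, 4, 7 and 8 (0.05). Its single probe ran from 0.21 to 0.98 over the M833 arrays, with a median of 0.68, against 0.22 to 0.55 over the WT arrays, with a median of 0.36. M833 replicate 2, at 0.21, was the lowest of all 16 arrays, so the groups overlapped over the full WT range. Hoxb3 averaged 0.67 ± 0.27 in M833 and 0.38 ± 0.10 in WT (SD, n = 8 each), a log2 difference of 0.29 ± 0.10 (SE) or 1.23-fold.

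Tbx3 had the smallest difference over all arrays as deposited, though not in every alternative. Without M833 replicates 3, 4, 7 and 8 those of Hoxb3 (0.0529) and Meis1 (0.111) were smaller. Tbx3 then averaged 0.0964 over the remaining M833 arrays, against -0.0329 over the WT arrays. With only replicates 3, 4, 7 and 8 of WT kept, Hoxb3 again differed less than Tbx3. Hoxb3 was then at 0.67 in M833 and 0.45 in WT, and Tbx3 at 0.13 and -0.11. Tbx3 was at 0.0782 or more in every alternative. The dye difference of Tbx3 (-0.20 ± 0.05, SE) was slightly larger in size than its difference between cell types (0.16 ± 0.05). Its single probe ran from -0.11 to 0.26 over the M833 arrays, with a median of 0.14, against -0.28 to 0.24 over the WT arrays, with a median of -0.02. The groups overlapped over most of their range. Tbx3 averaged 0.13 ± 0.06 in M833 and -0.03 ± 0.11 in WT (SD, n = 8 each), a log2 difference of 0.16 ± 0.05 (SE) or 1.12-fold.

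**Figure D1:**
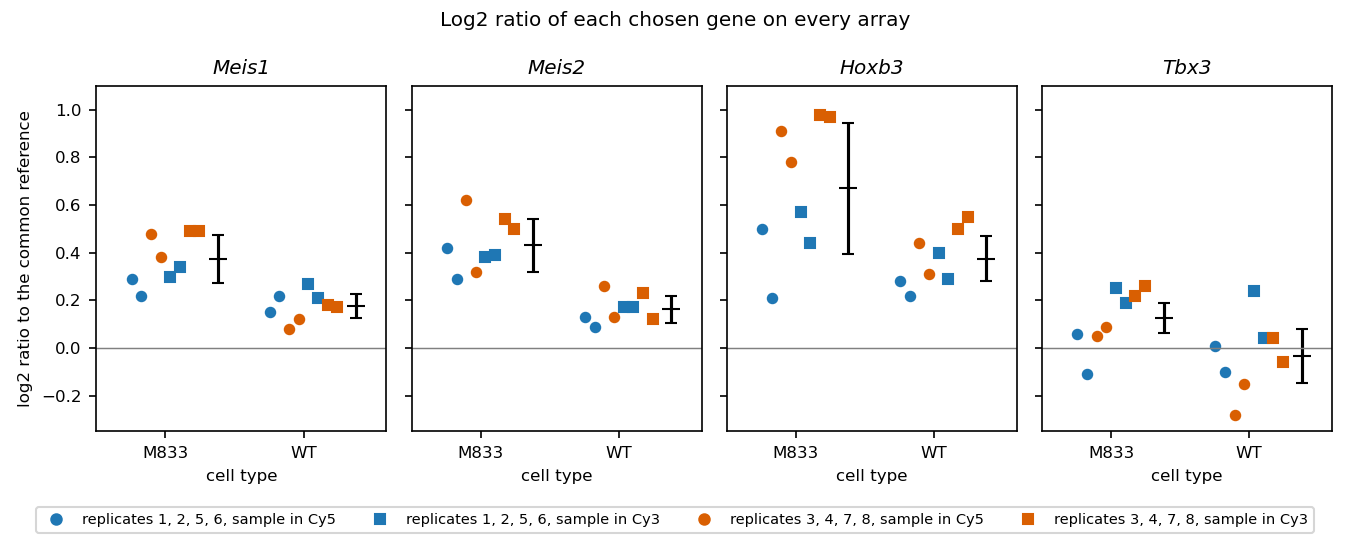
Log2 ratio to the common reference (vertical axis) of Meis1, Meis2, Hoxb3 and Tbx3 on the 8 M833 and 8 WT arrays; circles have the sample in Cy5 and squares in Cy3, colours give the sets of arrays that deviated together, and black bars are means ± SD after adjustment for dye. The Meis2 arrays of M833 all lie above those of WT, and the Hoxb3 arrays of M833 take a high level on replicates 3, 4, 7 and 8 and a level within or near the WT range on replicates 1, 2, 5 and 6.

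For scale, 3301 of 12761 features (25.9%) differed between M833 and WT at an adjusted p under 0.05 in limma, and 10.0% of features were called higher in M833. All 4 genes are among those called higher, which is how they came to be chosen, so nothing is read from that share. The median log2 difference over all features was -0.03, and 10.3% of features had a larger positive difference than Tbx3, 7.46% than Meis1, 4.27% than Meis2 and 3.62% than Hoxb3. As these were bulk samples, more cells of a kind that expresses a gene and more RNA per cell cannot be told apart.

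Within M833 the 4 genes had the same order of array sets but gaps of different size, and Hoxb3 took 2 separate levels. Hoxb3 was at 0.91, 0.78, 0.98 and 0.97 on M833 replicates 3, 4, 7 and 8, and at 0.50, 0.21, 0.57 and 0.44 on M833 replicates 1, 2, 5 and 6. The first set lay above every WT array, whose highest value was 0.55, and the second lay within or next to the WT range. The means of these sets were 0.91 and 0.43, a gap of 0.48, and a gap at least as large in either direction was seen in 0.447% of the 12761 features. Without M833 replicates 3, 4, 7 and 8 the difference of Hoxb3 between M833 and WT was 0.05 ± 0.07 (SE), and without M833 replicates 1, 2, 5 and 6 it was 0.54 ± 0.06.

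Meis1 showed the same division on a smaller scale. It was at 0.48, 0.38, 0.49 and 0.49 on M833 replicates 3, 4, 7 and 8, and at 0.29, 0.22, 0.30 and 0.34 on M833 replicates 1, 2, 5 and 6. The 2 sets did not overlap for Meis1 or Hoxb3 in either dye orientation, where M833 replicates 3, 4, 7 and 8 were the higher ones in 7.32% of all features and the lower ones in 5.96%. The difference of Meis1 between M833 and WT was 0.11 ± 0.04 without M833 replicates 3, 4, 7 and 8 and 0.28 ± 0.04 without M833 replicates 1, 2, 5 and 6. Meis2 (set means 0.49 and 0.37) and Tbx3 (0.15 and 0.10) had the same order of sets in M833, but their sets overlapped. A gap as large as that of Meis1 was present in 8.08% of features, of Meis2 in 15.6% and of Tbx3 in 45.9%.

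In WT the order of the sets differed from gene to gene. Hoxb3 was at 0.44, 0.31, 0.50 and 0.55 on WT replicates 3, 4, 7 and 8 and at 0.28, 0.22, 0.40 and 0.29 on WT replicates 1, 2, 5 and 6. Meis1 went the other way, with means of 0.14 and 0.22 on these sets, and so did Tbx3, with means of -0.11 and 0.05. These WT sets were apart in both dye orientations for all 3 genes, and over all features WT replicates 3, 4, 7 and 8 were apart above the others in 18.3% and below them in 20.8%. Gaps of this size were common in WT, where 43.4% of features had one as large as that of Hoxb3, 65.7% as large as that of Meis1 and 41.0% as large as that of Tbx3. The difference of Tbx3 between M833 and WT was 0.08 ± 0.05 (SE) with WT replicates 3, 4, 7 and 8 left out, and 0.24 ± 0.04 with the other WT set left out.

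**Figure D2:**
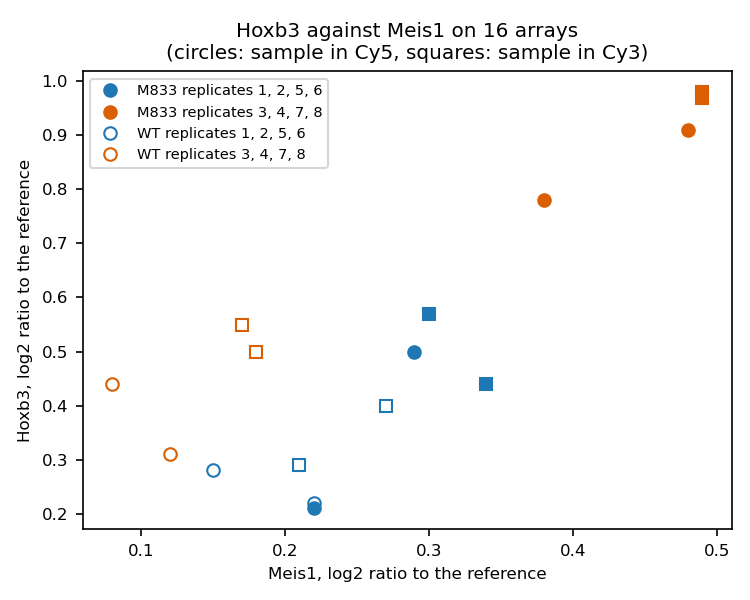
Hoxb3 (vertical axis) against Meis1 (horizontal axis), both as log2 ratio to the reference, on 16 arrays; filled symbols are M833 and open symbols WT, circles have the sample in Cy5 and squares in Cy3. M833 replicates 3, 4, 7 and 8 lie apart at the upper right, with Hoxb3 at 0.78 to 0.98, while the other M833 arrays lie next to the WT arrays.

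Some other marker lists differed between M833 and WT on the same arrays. The mean of 7 macrophage and leukocyte markers ran from -1.60 to -1.29 over the M833 arrays, against -0.46 to -0.28 over the WT arrays, and 7 of 7 fell in M833 in limma, where 15.9% of all features were called lower and 10.0% higher. With sets of 4 arrays as a random block all 7 were still called (adjusted p of at most 0.0161). The mean of 24 cell cycle genes ran from 0.07 to 0.22 over the M833 arrays, against -0.60 to -0.14 over the WT arrays, and 20 of 24 rose (19 with the block). The sets of M833 arrays were also apart for the cell cycle list, at 0.19 to 0.22 on replicates 3, 4, 7 and 8 and at 0.07 to 0.09 on replicates 1, 2, 5 and 6. The fibroblast list mean ran from -0.93 to -0.49 over the M833 arrays, against -0.60 to -0.21 over the WT arrays, and 5 of 8 fell. With the block 2 of 8 did, and Col1a1 (adjusted p = 0.0636) and Vim (adjusted p = 0.153) were among the lost calls. Vim was at -0.03 with log ratios scaled between arrays and at 0.03 with quantile normalisation. All 3 measured skeletal muscle markers rose (1 with the block), with a median of 0.61, and both cell types lay far below the reference for the list. Of the epithelial markers 2 of 11 rose and of the neural and neural crest markers 1 of 4, none of them with the block. None of 4 endothelial markers was called. The part of these markers in the levels of the 4 genes was not tested.

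The dye orientation left its own mark, which bears on Tbx3 above all. Across both cell types Tbx3 was lower by a log2 difference of -0.20 ± 0.05 (SE) with the sample in Cy5 than with it in Cy3 (adjusted p = 0.00325, limma), a direction in which 18.5% of features were called, of 41.3% called in either. Its M833 arrays were at -0.11 to 0.09 with the sample in Cy5 and at 0.19 to 0.26 with it in Cy3, and its WT arrays at -0.28 to 0.01 and at -0.06 to 0.24. The dye differences of Hoxb3 (-0.13), Meis1 (-0.06) and Meis2 (-0.03) did not pass the test, with adjusted p-values of 0.314, 0.245 and 0.604. Both cell types hold both orientations equally, so the dye difference cancels in M833 minus WT, which for Tbx3 was 0.15 with the sample in Cy5 and 0.16 with it in Cy3. A test of whether M833 minus WT depended on dye called 0 of 12761 features in limma (0%, with 361 at an unadjusted p under 0.05), and the interaction estimates of the 4 genes ran from -0.02 for Meis2 to -0.000518 for Meis1 on the log2 scale.

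Against the reference, 3 of the 4 genes were higher in the cells. The test used the mean of M833 and WT, whose estimate in this balanced design is uncorrelated with that of their difference. Both estimates share the error of the gene, on which the choice of the genes may bear. Hoxb3 was above the reference by 0.52 ± 0.05 (SE, adjusted p = 5.99e-08, limma), Meis2 by 0.30 ± 0.02 (adjusted p = 4.22e-09) and Meis1 by 0.27 ± 0.02 (adjusted p = 3.5e-09). A level above the reference was called in 44.4% of all features, and one below it in 38.4%. These calls held in every alternative at the level of genes, with adjusted p-values of at most 0.01 for Hoxb3, 0.0034 for Meis2 and 0.00706 for Meis1, each reached with the mean of each set of 4 arrays as 1 replicate. Tbx3, at 0.05 ± 0.02, missed the threshold (adjusted p = 0.0853, limma). It passed without WT replicate 3 (0.06, adjusted p = 0.0326), without M833 replicate 2 (0.06, adjusted p = 0.0375) or without WT replicate 8 (0.06, adjusted p = 0.0426), and over all alternatives its adjusted p lay between 0.00255 and 0.797.

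The 2 probes of Meis1 gave the same direction between cell types but disagreed on its level against the reference. Probe 211669 of Meis1 ran from 0.47 to 0.89 in M833, against 0.27 to 0.54 in WT. Probe 214756 of the same gene ran from -0.03 to 0.21 in M833, against -0.22 to 0.02 in WT. Both were higher in M833, by 0.24 ± 0.06 and 0.16 ± 0.04 (SE). Against the reference, however, only the first was called, at 0.55 ± 0.03 (adjusted p = 6.96e-11, limma), while the second was at 0.003 ± 0.02 (adjusted p = 0.887). So the level of Meis1 against the reference rests on 1 of its 2 probes.

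The 2 probes of Meis2 were both above the reference. Probe 204995 ran from 0.32 to 0.80 in M833, against 0.12 to 0.44 in WT, and probe 212936 from 0.14 to 0.50 in M833, against -0.10 to 0.13 in WT. With probe 212936 every M833 array lay above every WT array, whereas with probe 204995 M833 replicate 4, at 0.32, lay below WT replicate 3, at 0.44. The differences were 0.25 ± 0.06 and 0.29 ± 0.05 (SE), in the same order of probes, and both were above the reference, at 0.39 ± 0.03 (adjusted p = 4.23e-09, limma) and 0.20 ± 0.02 (adjusted p = 7.31e-07).

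**Figure D3:**
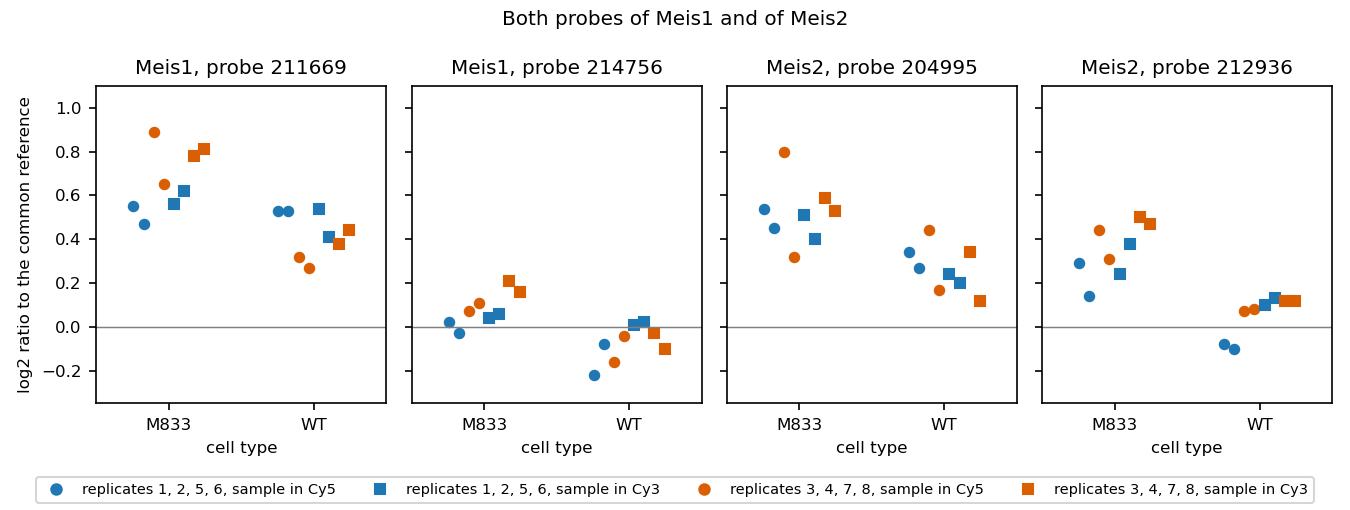
Log2 ratio to the reference (vertical axis) of each probe of Meis1 and Meis2 on the 8 M833 and 8 WT arrays, with symbols and colours as in the plot of all 4 genes by array. Each probe is higher in M833 on average, and the probes of Meis1 lie at different levels, 0.67 and 0.08 in M833 and 0.43 and -0.07 in WT.

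Across the families to which the 4 genes belong there was no common direction. Of 15 other measured genes in the TALE, Hox and T-box lists 3 rose, 3 fell and 9 were not called (adjusted p in limma). Their median log2 difference was -0.07, where 10.0% of all features were called higher, 15.9% lower and the median was -0.03. The TALE list holds Pbxip1, 1 of the 3 that fell, whose product binds PBX proteins but is not a TALE protein. With sets of 4 arrays as a random block 3 of the 15 were called, Tgif2, Pbxip1 and Hoxb1, and when each set was averaged to 1 replicate none was (0 of 12761 features, with 1675 at an unadjusted p under 0.05). The list of TALE genes had 10 of 19 measured, the list of Hox genes 4 of 39 and the list of T-box genes 5 of 17.

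Among genes for PBX proteins and for proteins that bind PBX, Pbx2 was called higher and Pbxip1 lower. Pbx2, which encodes a PBX cofactor, rose in M833 by 0.26 ± 0.05 (SE, n = 8 per cell type, adjusted p = 0.00134, limma), with means of -0.24 in M833 and -0.50 in WT. Its call was lost with sets of 4 arrays as a random block (adjusted p = 0.0523). Pbxip1, whose product binds PBX proteins and keeps them from DNA, fell by 0.52 ± 0.07 (adjusted p = 6.49e-05), and all its M833 arrays lay below all its WT arrays within each dye orientation, as in 6.49% of features. Without the dye term the call of Pbxip1 was lost (adjusted p = 0.202). Pknox1, encoding a TALE protein that also pairs with PBX, was at 0.15 ± 0.06 and missed the threshold (adjusted p = 0.0779). It passed in 6 of 33 alternatives, among them centred arrays (0.17, adjusted p = 0.0344) and WT replicates 1, 2, 5 and 6 left out (0.25, adjusted p = 0.0071). Pknox2 (0.06) did not pass either.

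Pbx3 was split between the sets of WT arrays. It was at 0.73, 0.64, 0.70 and 0.69 on WT replicates 1, 2, 5 and 6, but at 0.08, -0.06, -0.04 and 0.04 on WT replicates 3, 4, 7 and 8. The M833 arrays, from -0.03 to 0.26, lay with the second WT set. The difference over all arrays was -0.25 ± 0.13 (SE, adjusted p = 0.175, limma), and without WT replicates 3, 4, 7 and 8 it was -0.60 (adjusted p = 1.89e-05).

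The TGIF repressors, TALE proteins known to damp retinoid and TGF-beta signals, went in opposite directions. Tgif2 rose by 0.25 ± 0.03 (adjusted p = 5.93e-06, limma), with its M833 arrays from 0.17 to 0.33 and its WT arrays from -0.11 to 0.07. Tgif1 fell by 0.21 ± 0.06 (adjusted p = 0.0163), a call lost with log ratios scaled between arrays (-0.06, adjusted p = 0.545). The Iroquois gene Irx3 was at -0.08 and did not pass. Tgif1 was also not called with quantile normalisation (-0.03, adjusted p = 0.792) or with the random block (adjusted p = 0.148).

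Hoxb1, which lies in the same cluster as Hoxb3 and patterns the hindbrain, went against it. Hoxb1 fell by 0.27 ± 0.05 (SE, adjusted p = 0.0011, limma), with M833 arrays from 0.13 to 0.43 and WT arrays from 0.30 to 0.84, and within each dye orientation all its M833 arrays lay below all its WT arrays, again as in 6.49% of features. The more posterior genes Hoxb8 (0.03 ± 0.05, adjusted p = 0.672) and Hoxc9 (-0.07 ± 0.05, adjusted p = 0.395) were not called. Among T-box genes the heart factor gene Tbx20 rose by 0.23 ± 0.06 (adjusted p = 0.00922), and it was below the reference in M833 (-0.65) and in WT (-0.87). Among other alternatives, its call was lost with log ratios scaled between arrays, at 0.10 (adjusted p = 0.284), and when WT replicates 1, 2, 5 and 6 were left out, at 0.14 (adjusted p = 0.0728). Eomes (0.003), Tbx19 (-0.07) and Mga (-0.13) did not pass.

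**Figure D4:**
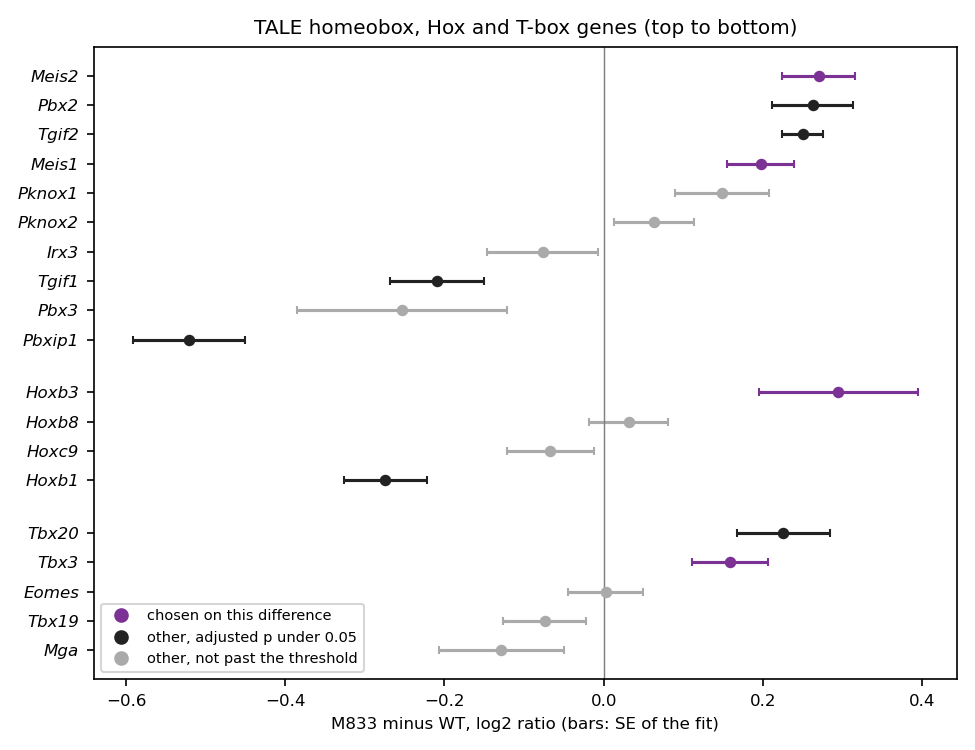
Log2 difference M833 minus WT (horizontal axis) of the measured TALE homeobox, Hox and T-box genes, with bars for the SE of the fit; purple marks the 4 genes chosen on this difference, black other genes with an adjusted p under 0.05 and grey the rest. The other genes run from -0.52 for Pbxip1, which is in the TALE list but encodes a PBX-binding protein, to 0.26 for Pbx2.

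In the list of limb, branchial and somite factors 3 of 9 measured genes rose and none fell, with a median of 0.12, where 10.0% of all features were called higher and 15.9% lower. With sets of 4 arrays as a random block Hand1 alone was called. Hand1, a factor of heart and extra-embryonic mesoderm, rose by 0.27 ± 0.06 (adjusted p = 0.00452, limma), Otx2, a head factor, by 0.21 ± 0.07 (adjusted p = 0.0377) and the hedgehog effector Gli3 by 0.12 ± 0.04 (adjusted p = 0.0377). Hand1 was no longer called without WT replicates 1, 2, 5 and 6 (0.16, adjusted p = 0.0783), without M833 replicates 1, 2, 5 and 6 (0.19, adjusted p = 0.117) and with either dye orientation alone. The call of Gli3 was lost when any one of 11 arrays was left out and that of Otx2 when any one of 9 was. With the block the adjusted p was 0.291 for Gli3 and 0.313 for Otx2. The uncalled genes with the largest differences were Tcf21 (0.44 ± 0.18, adjusted p = 0.0836), Alx1 (0.24 ± 0.29) and Eya2 (-0.05 ± 0.06). All 3 passed when WT replicates 3, 4, 7 and 8 were left out, at 0.78 for Tcf21, 0.81 for Alx1 and -0.17 for Eya2 (adjusted p = 0.00271, 0.0464 and 0.0327 in that order).

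Regulators known to act on Meis and Hox genes were also followed. Of 8 measured genes in the list of retinoid handling and receptors, which also holds the target gene Tgm2, 2 fell and none rose. The median of the list was -0.04, where 15.9% of all features were called lower and their median was -0.03. Both calls held with the random block. Rdh10, which encodes the retinol dehydrogenase that starts retinoic acid synthesis in the embryo, fell by 0.43 ± 0.05 (SE, adjusted p = 3.36e-05, limma), at 0.52 in M833 and 0.95 in WT. The transglutaminase gene Tgm2, a classical retinoic acid target, fell by 0.77 ± 0.17 (adjusted p = 0.00345), and was at -0.32 without WT replicates 3, 4, 7 and 8. Its call was lost with the sample in Cy5 alone (adjusted p = 0.105, limma) or in Cy3 alone (adjusted p = 0.0574). It was also lost without M833 replicates 1, 2, 5 and 6 (-0.69, adjusted p = 0.0842). The synthesis genes Aldh1a1 (-1.53 ± 1.23) and Aldh1a2 (0.12 ± 0.25) and the receptor gene Rxrb (-0.08 ± 0.05) did not pass. The value of Aldh1a1 turns on WT replicate 2, without which it was -0.21, and its SD over the WT arrays was 3.56. The sets of WT arrays disagreed on Aldh1a2, which was at -0.56 in M833 minus WT when WT replicates 1, 2, 5 and 6 were left out (adjusted p = 6.69e-05) and at 0.80 when the other WT arrays were (adjusted p = 6.44e-06).

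Among Polycomb and Trithorax regulators, which hold Hox genes silent or active, 6 of 25 rose and 3 fell, with a median of 0.05, where 10.0% of all features were called higher and 15.9% lower. With sets of 4 arrays as a random block 3 of 25 rose and none fell. The histone methyltransferase gene Ezh2 rose by 0.33 ± 0.04 (SE, adjusted p = 3.64e-05, limma), Rbbp4 by 0.24 ± 0.04 (adjusted p = 0.000537) and Mtf2 by 0.23 ± 0.03 (adjusted p = 3.69e-05). Pcgf3 fell by 0.23 ± 0.05 (adjusted p = 0.00485), but was not called with the block (adjusted p = 0.0513), with either dye orientation alone, or without WT replicates 3, 4, 7 and 8 (-0.12, adjusted p = 0.0517). Bmi1 (-0.16), Phc1 (0.12) and Ash2l (0.12) did not pass over all arrays as deposited. Bmi1 passed in 3 of 33 alternatives, Phc1 in 4 and Ash2l in 7. Bmi1 was at -0.30 when WT replicates 3, 4, 7 and 8 were left out, and Phc1 was at 0.26 and Ash2l at 0.22 when WT replicates 1, 2, 5 and 6 were. The cell cycle list described above was higher in M833 on the same arrays, and its part in these values was not tested.

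Genes with the pattern most like each of the 4 were sought among 7095 named genes by Pearson's r over 16 arrays after adjustment for dye. These values describe the arrays, which share cell types and sets, and carry no p-value. Opposed patterns were as strong, as the lowest r was -0.953 for Meis1, -0.947 for Meis2, -0.877 for Hoxb3 and -0.913 for Tbx3. Most like Meis1 was Tshz1, a zinc finger factor of the trunk (r = 0.953), at 1.19 on M833 replicates 3, 4, 7 and 8 and 0.89 on M833 replicates 1, 2, 5 and 6, against 0.52 and 0.79 on the same sets of WT. After it came the replication gene Cdc6 (r = 0.942) and the adaptor gene Grb10 (r = 0.94).

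The pattern of Meis2 was most like that of Wt1 (r = 0.937), a transcription factor gene of the kidney, gonad and mesothelium, followed by Arhgap19 (r = 0.921) and the amino acid transporter gene Slc38a2 (r = 0.918). Wt1 was at -0.01 to 0.51 over the M833 arrays, against -0.47 to -0.17 over the WT arrays, a difference of 0.55. Hoxb3 was most like the orphan nuclear receptor gene Nr2f1 (r = 0.872), which was at -0.60 to -0.06 over the M833 arrays and at -1.09 to -0.48 over the WT arrays. Wt1 (r = 0.842) and the Mediator subunit gene Med6 (r = 0.839) came next. Tbx3 was most like Hnrnpr (r = 0.907), the mitotic kinesin gene Kif2c (r = 0.904) and Nsmce4a (r = 0.904).

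When the mean of each cell type was also removed, so that the difference that chose the genes played no part, other genes led. Fstl1 (r = 0.924), Zc3hc1 (r = 0.887) and Tshz1 (r = 0.876) were most like Meis1, and Il7 (r = 0.831), Riok1 (r = 0.828) and Pde6d (r = 0.826) most like Meis2. Hoxb3 was most like the collagen gene Col1a2 (r = 0.875), Tcf7l1 (r = 0.866) and Wt1 (r = 0.858). Col1a2 was at -0.67 on M833 replicates 3, 4, 7 and 8 and at -1.04 on M833 replicates 1, 2, 5 and 6, against 0.06 and -0.03 on the same sets of WT, so that between cell types it differed the opposite way from Hoxb3. Rpl28 (r = 0.892), Rfx2 (r = 0.873) and Lpcat3 (r = 0.871) were most like Tbx3.

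The size of the differences of the 4 genes also moved with the scaling of the arrays. Meis1 was at 0.22 with each array centred on its median, 0.25 with log ratios scaled between arrays and 0.27 with quantile normalisation. On the same settings Meis2 was at 0.29, 0.32 and 0.35, Hoxb3 at 0.32, 0.38 and 0.43 and Tbx3 at 0.18, 0.16 and 0.19. All of these were at least as large as the values of the deposited log ratios.

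**Figure D5:**
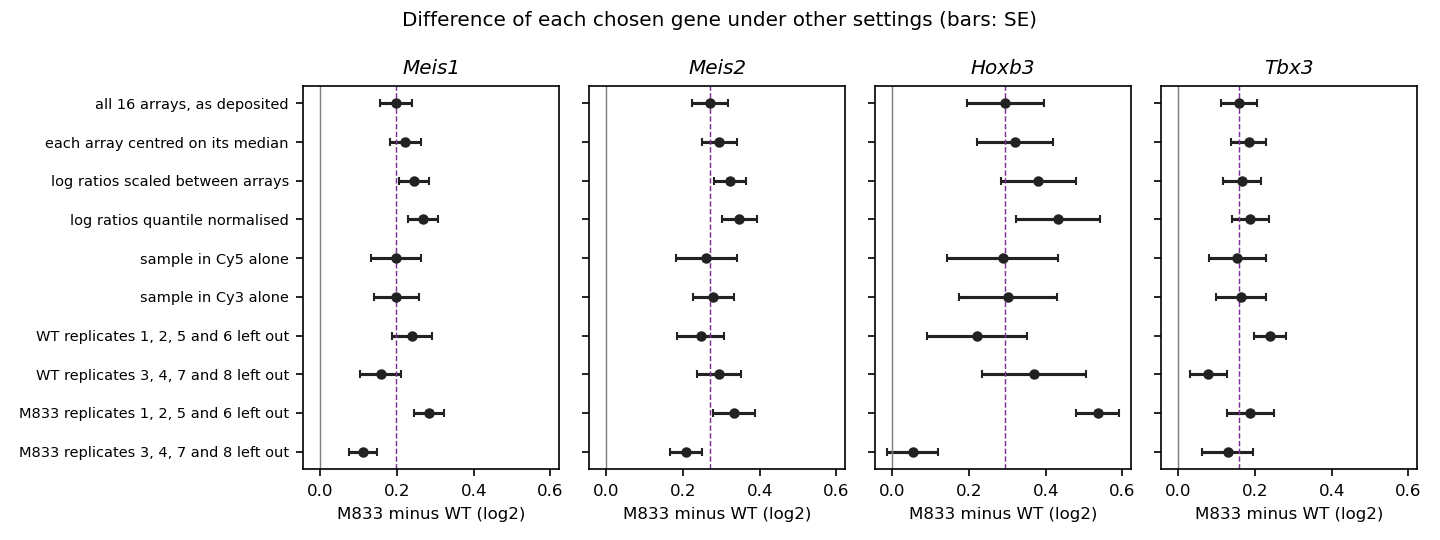
Log2 difference M833 minus WT (horizontal axis) of each of the 4 genes with all arrays as deposited, with 3 scalings, with 1 dye orientation, and with each set of 4 arrays left out; bars are SEs of the fit and the dashed line is the value from all arrays. Hoxb3 runs from 0.05 without M833 replicates 3, 4, 7 and 8 to 0.54 without M833 replicates 1, 2, 5 and 6.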

How the data were processed

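Total RNA of the cell types M833 and WT was compared with a common reference RNA on 16 two-colour arrays, 8 per cell type, 4 in each dye orientation. Per the labels' protocols Trizol was used for extraction and dye-coupled dCTP was built in during reverse transcription. The deposited values are log2 ratios that the authors had already normalised, and the submitters' processing notes name limma. How background and normalisation were handled is not given in the sources used here, and the log2 scale was inferred from the values. Array medians lay between -0.02 and 0.07, no filter on brightness was possible without intensities, and the number of arrays limits the precision.

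Probes were named through the platform annotation (9600 of 15247 with one symbol, 9492 of them matched to RefSeq by gene number), and probes of one gene were averaged, which gave 12761 features. These were fitted with limma 3.58.1 in R 4.3.3 (lmFit, eBayes) with terms for cell type and dye orientation over 16 arrays, and p-values were adjusted over all features (Benjamini-Hochberg, threshold 0.05). Errors are SEs of the fit, or SDs over 8 arrays after adjustment for dye. The fit was tested for M833 minus WT on simulated data of 12761 features. It found 50% of simulated log2 changes of 0.25 and 96% of those of 0.5, with 3 false calls. Sets of 4 arrays deviating together were not built into this simulation, whereas the real arrays had a correlation of 0.324 within such sets. Its rates therefore cannot show how many of the calls in the real arrays are false or missed.

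The 4 genes and all gene lists were chosen with earlier results of these data known. Named are the 4 genes, every measured TALE, Hox and T-box gene, and the genes of most similar pattern. Genes named from the other lists are among the largest called and uncalled differences of each. For cell type lists other than the fibroblast list, and for the cell cycle list, no gene was named on this ground. Alternatives were centring, scaling or quantile normalisation of arrays, no dye term, single probes, array weights, robust or no moderation, one dye orientation, leaving out arrays, slide number series or sets of 4 arrays, and such sets as a block or as replicates.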

Additional observations from a re-analysis of the deposited data

Results flagged for a closer look

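Groups of 8 arrays were taken for the 4 genes and the other genes of the TALE, Hox and T-box lists in each cell type. Of these 38 groups 1 had an array far from the others, where chance gives about 5% of groups. This was Mga in WT, at 0.56 on WT replicate 2 with the next array at 0.07, a gap of 0.804 of the range of the group. Neither cell type had such an array for Meis1, Meis2, Hoxb3 or Tbx3.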

How the results depend on the processing

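The 4 differences between M833 and WT stayed above 0 in every alternative run. The genes had been picked for being higher in M833 on these arrays, which the alternatives reuse, so nothing is read from that sign. Leaving out one array gave differences of 0.176 to 0.217 for Meis1, 0.239 to 0.289 for Meis2, 0.247 to 0.355 for Hoxb3 and 0.136 to 0.186 for Tbx3, and means against the reference of 0.264 to 0.284, 0.281 to 0.306, 0.499 to 0.553 and 0.0327 to 0.0575 for the same genes. Without M833 replicates 1, 2, 5 and 6 the difference of Meis1 was 0.284 and that of Hoxb3 0.536, and without M833 replicates 3, 4, 7 and 8 they were 0.111 and 0.0529. With sets as replicates the SEs were 0.0864 for Meis1, 0.072 for Meis2, 0.185 for Hoxb3 and 0.0809 for Tbx3. Meis1 on probe 214756 alone was at 0.00288 against the reference. Tbx3 passed against the reference with scaled log ratios (0.0628), with quantile normalisation (0.0653), with the sample in Cy3 alone (0.148) and without WT replicates 3, 4, 7 and 8 (0.0864). Against 1276 features higher and 2025 lower in M833, there were 780 and 1220 with no dye term, 287 and 548 with Cy5 alone, 406 and 694 with Cy3 alone, 562 and 903 with sets as a random block, 0 and 0 with set means in limma (1675 in either direction at an unadjusted p under 0.05), 661 and 1024 without M833 replicates 1, 2, 5 and 6, 699 and 1159 without M833 replicates 3, 4, 7 and 8, and 1348 lower without 3 M833 arrays whose slide numbers form a second series. Leaving out one array gave 1114 to 1265 higher and 1756 to 2049 lower. Of the other genes in the TALE, Hox and T-box lists 6 were called. There were 2 with Cy5 alone, 3 with Cy3 alone, 3 with the block, 0 with set means and 6 to 7 without one array. Settings with one dye or one set left out hold fewer arrays; the cause of the other shifts was not tested. Ptch1 turned to -0.0305 with scaled log ratios, Vim to 0.0313 with quantile normalisation and Aldh1a2 to -0.559 without WT replicates 1, 2, 5 and 6. The median difference of all features was -0.0342 as deposited and -0.00958 with centred arrays. No paired analysis was possible because the replicate numbers come only from the order of the series.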

Other observations

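Of 16 measured genes of BMP, FGF, hedgehog and Wnt signalling, the signals that pattern the embryonic axes, 1 rose in M833 and none fell, where 10.0% of all features were called higher and 15.9% lower. None was called with sets of 4 arrays as a random block. The hedgehog receptor gene Ptch1 rose by 0.30 ± 0.09 (SE, n = 8 per cell type, adjusted p = 0.023, limma), far below the reference in M833 (-1.57) and in WT (-1.88). With that block its adjusted p was 0.107 (limma), and its sign turned with log ratios scaled between arrays. The Wnt inhibitor gene Dkk1 (-0.19, adjusted p = 0.0525), Smad1 (0.15, adjusted p = 0.0743) and Ctnnb1 (-0.09) did not pass over all arrays as deposited. Of 33 alternatives Dkk1 passed in 4, Smad1 in 3 and Ctnnb1 in 1.

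Among 6 measured genes reported to respond to TBX3 or MEIS factors 2 fell and none rose, where 15.9% of all features were called lower. Both calls held with the random block. The connexin gene Gja1 fell by 0.64 ± 0.10 (adjusted p = 0.000293, limma) and the cyclin gene Ccnd1 by 0.33 ± 0.06 (adjusted p = 0.000902), and in both all M833 arrays lay below all WT arrays within each dye orientation, as in 6.49% of features. Without WT replicates 1, 2, 5 and 6 Gja1 was at -0.38, and without WT replicates 3, 4, 7 and 8 Ccnd1 was at -0.19. Cdh1 (-0.17), Hif1a (0.17) and Bmp4 (-0.05) did not pass over all arrays as deposited. Cdh1 passed with scaled log ratios (-0.67, adjusted p = 0.000591), with quantile normalisation (-0.29, adjusted p = 0.00933) and when the WT set of replicates 1, 2, 5 and 6 was left out (-0.29, adjusted p = 0.0323). Bmp4 passed without WT replicates 1, 2, 5 and 6 (-0.14, adjusted p = 0.00759). Hif1a passed in none of the 33 alternatives and took either sign, from -0.17 without WT replicates 1, 2, 5 and 6 to 0.50 without WT replicates 3, 4, 7 and 8.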
